A study of Mus musculus with 42 samples.

Results

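The HoxB cluster genes, Hoxb1 to Hoxb9, were followed in 2 kinds of sensory ganglion. The mice were BALB/c, which is inbred, and were kept in standard housing with no treatment. A probe set, the group of short oligonucleotides that reads 1 transcript on an Affymetrix array, was included if the platform annotation gave it exactly 1 of the 9 gene symbols, whatever its signal. That rule gave 9 genes of the 18337 with a single-gene probe set in the series. MG-U74Av2 arrays held 9 such probe sets for 8 of the genes, of 10855 single-gene probe sets, with no single-gene probe set for Hoxb2. Mouse430_2 arrays held 10 for 8 genes, of 34958, with no single-gene probe set for Hoxb8.

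There were 42 arrays in 6 groups and 3 experiments, each of which set nodose ganglion (NG), which houses the cell bodies of vagal afferents from the viscera, against dorsal root ganglion (DRG), which houses those of spinal afferents. Neurons isolated by laser capture microdissection, about 150 per sample, gave 11 NG and 9 DRG samples on Mouse430_2, and 5 NG and 5 DRG samples on MG-U74Av2. All 5 NG and 5 DRG sample numbers of the latter recur on Mouse430_2, and the labels do not say whether they share RNA or animals. Lysed whole ganglia gave 7 NG and 5 DRG samples on MG-U74Av2. Each labelling used about 12 µg of RNA, described as amplified where captured cells went on MG-U74Av2 and as total RNA otherwise. No label says whether the Mouse430_2 RNA was amplified. Its log2 ratio of beta actin signal at the 3' end over the 5' end was 4.88 to 6.15 in NG and 5.08 to 5.95 in DRG. Captured neurons on MG-U74Av2 gave 5.58 to 6.2 and 5.28 to 5.66, and whole ganglia 2.26 to 3.44 and 2.68 to 2.89. Whether amplification lay behind these ratios was not tested. The title describes the captured cells as visceral sensory neurons, but the labels do not give how they were recognised, the spinal level of the DRG, or the age and sex of the mice. Every sample description mentions laser capture, whereas 1 set of extraction protocols puts whole ganglia in lysis buffer; the protocol was followed. Since no label ties samples to separate animals, p-values reflect variation among these samples, whether biological or technical.

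Hox genes encode homeodomain transcription factors that give cells along the body axis their regional identity. They lie in 4 clusters, and within a cluster the genes toward the Hoxb1 end are switched on earlier and further forward in the embryo than those toward the Hoxb9 end, an arrangement called colinearity. The neurons of the nodose ganglion come from an epibranchial placode at hindbrain level, whereas neurons of the dorsal root ganglia come from trunk neural crest, and Hox patterns set in the embryo can persist in adult neurons. In the RefSeq table of assembly GRCm38.p6 the 9 genes ran along chromosome 11 in the order of their numbers. The annotated interval of Hoxb3 overlapped Hoxb4 there, and the antisense gene Hoxb5os overlapped Hoxb5 and Hoxb6.

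RefSeq promoters were at hand for 3 members, from 3 parts of the cluster: Hoxb1 at one end, Hoxb4, whose signal differed between the ganglia in every experiment, and Hoxb8, whose signal passed the test in neither experiment that measured it. Each is shown as the 250 bases before the gene start (GRCm38.p6), 5′ to 3′. Capitals mark matches, on either strand, to TGATNNAT (a Pbx-Hox site), TTTATG (a Cdx site) or AGGTCA (a retinoid receptor half-site). CCAAT was also searched and is left in lower case.
Hoxb1 (chr11:96365508-96365757, plus strand): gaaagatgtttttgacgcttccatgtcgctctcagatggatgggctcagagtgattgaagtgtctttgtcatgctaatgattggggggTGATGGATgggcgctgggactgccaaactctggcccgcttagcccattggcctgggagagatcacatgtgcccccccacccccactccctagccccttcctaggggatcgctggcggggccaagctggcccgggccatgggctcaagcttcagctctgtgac
Hoxb4 (chr11:96318017-96318266, plus strand): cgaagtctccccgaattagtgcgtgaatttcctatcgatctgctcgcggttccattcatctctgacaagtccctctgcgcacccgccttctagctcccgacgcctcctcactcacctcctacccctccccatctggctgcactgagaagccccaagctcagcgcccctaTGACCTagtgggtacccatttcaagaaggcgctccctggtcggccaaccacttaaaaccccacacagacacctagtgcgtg
Hoxb8 (chr11:96281655-96281904, plus strand): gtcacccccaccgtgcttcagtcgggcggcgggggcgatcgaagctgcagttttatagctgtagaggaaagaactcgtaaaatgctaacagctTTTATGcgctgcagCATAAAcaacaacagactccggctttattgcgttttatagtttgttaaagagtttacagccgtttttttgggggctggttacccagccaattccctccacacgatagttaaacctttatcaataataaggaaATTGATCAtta
The Hoxb1 window held 1 match to TGATNNAT, the Hoxb4 window 1 match to AGGTCA, read on the opposite strand as TGACCT, and the Hoxb8 window 2 matches to TTTATG and 1 to TGATNNAT. The Hoxb4 window lies inside the annotated interval of Hoxb3. Of 32851 promoter windows of the same length, 7.68% held TGATNNAT, 10.8% held TTTATG, 14% held AGGTCA and 33.8% held CCAAT. That last motif had 2 matches in the Hoxb1 window, 0 in that of Hoxb4 and 1 in that of Hoxb8. A match describes letters only.

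Arrays differed in brightness before scaling, with trimmed means of 84.2 to 200.5 on Mouse430_2 and 174.9 to 408.3 on MG-U74Av2, and were scaled to one mean per array type. Signals below are scaled signal intensities in arbitrary units, and differences are NG minus DRG on the scale of log2(signal + pseudocount), with the pseudocount at the 20th percentile of each experiment (11.7 in whole ganglia, 11 and 7.48 in captured neurons on MG-U74Av2 and Mouse430_2), which understates folds of dim probe sets. Genes of tissues not sampled, such as Alb of liver and Ins2 of pancreas, served as a gauge of background: the 90th percentile of their group means was 72.6 on Mouse430_2 (24 genes), and 132 in captured neurons and 136 in whole ganglia on MG-U74Av2 (25 genes each). Both group means lay below that level for 2 of 9 tested Hoxb probe sets on Mouse430_2 (Hoxb3 1456229_at and Hoxb9), for 3 of 7 in captured neurons on MG-U74Av2 (Hoxb1, Hoxb3 and Hoxb4) and for 3 of 5 in whole ganglia (Hoxb4, Hoxb7 and Hoxb8). The ganglion labels were set against marker lists. All tested vagal markers (Htr3a, a serotonin receptor subunit, Ntsr1, a neurotensin receptor, and others) were higher in NG, 9 of 9 on Mouse430_2 and 5 of 5 in each MG-U74Av2 experiment. Of spinal markers tested, 7 of 9 were higher in DRG on Mouse430_2, 4 of 5 among captured MG-U74Av2 samples and 2 of 5 in whole ganglia. Isl1 was higher in NG in both captured experiments, and Runx3 on Mouse430_2. The other Isl1 probe set on Mouse430_2 missed the threshold (0.33, adjusted p = 0.333). Summed signal of glial markers was 10910 to 13570 in NG and 13800 to 16540 in DRG captured neurons on Mouse430_2, 12400 to 13580 and 14520 to 16970 on MG-U74Av2, and 16260 to 20650 in NG and 15950 to 20000 in DRG whole ganglia. The part of such other cells in the Hoxb differences was not tested. In bulk samples, fewer cells of a type and less RNA per cell cannot be told apart.

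Genes in the middle of the cluster, Hoxb4, Hoxb5 and Hoxb6, were higher in NG throughout, in all 3 experiments, and Hoxb2 and Hoxb3 were higher in NG on Mouse430_2. The captured experiments share sample numbers, so they may not be independent of each other. On MG-U74Av2, Hoxb4 was tested only because its NG arrays passed the filter on dim probe sets. Its calls there, which enter the counts and medians below, are no separate support. Only Hoxb7 and Hoxb9 had a probe set higher in DRG, and no Hoxb1 or Hoxb8 probe set passed the test. On Mouse430_2, 6 of the 9 probe sets tested, in 5 genes, were higher in NG and 1 was higher in DRG, beside 9.72% and 12.5% of all 28107 probe sets tested. The captured MG-U74Av2 samples gave 3 and 1 of 7, beside 10.4% and 11.3% of 7583. Whole ganglia gave 3 and 1 of 5, beside 19.6% and 15.8% of 7698. The median NG minus DRG difference of the tested Hoxb probe sets was 1.32, 0.54 and 1.15 in the same order, against -0.05, 0.05 and 0.05 for all probe sets tested. Dim probe sets were left untested: 1 of 10, 2 of 9 and 4 of 9.

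**Figure D1:**
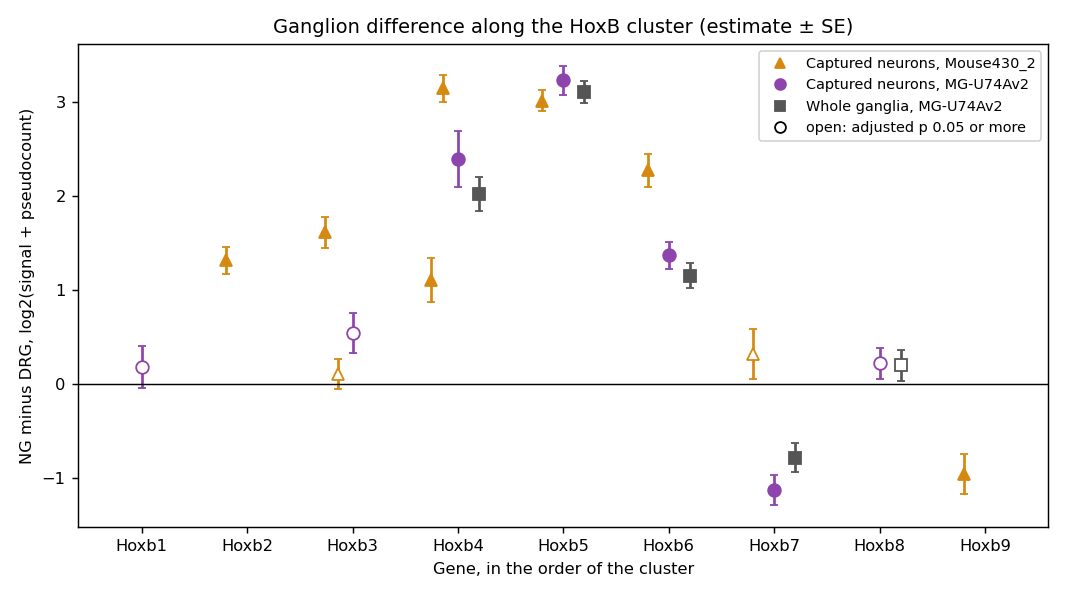
NG minus DRG difference (log2, bars are standard errors) of every tested Hoxb probe set along the cluster from Hoxb1 to Hoxb9, with a symbol for each of the 3 experiments and open symbols where the adjusted p was 0.05 or more. Hoxb4 to Hoxb6 lie above 0 throughout, with Hoxb5 between 3.02 and 3.24, whereas the points below 0 that passed the test belong to Hoxb7 and Hoxb9.

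Hoxb1, which specifies the identity of a hindbrain segment, passed the test nowhere. Its MG-U74Av2 probe set 93888_at gave 34.5, 83.3, 46.5, 59.2 and 45.5 in NG captured neurons, and 38.6, 52.7, 58.5, 39 and 36.8 in DRG captured neurons. The groups overlapped, and the difference was 0.18 (SE 0.227, adjusted p = 0.615). In whole ganglia it was too dim to test, at 27.1 to 90.4 (median 38.9) in NG and 19.6, 57.6, 41.2, 34.4 and 32.3 in DRG. On Mouse430_2, 1453501_at passed the 40th percentile of its array on 1 of 20 arrays, with signals of 3.62 to 37 in NG (median 12.3) and 4.23 to 20.7 in DRG (median 9.66).

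Hoxb2, which acts beside Hoxb1 in hindbrain patterning, was read on Mouse430_2 by 1449397_at. Signals ran from 200.3 to 316 in NG (median 249) and from 68.8 to 139 in DRG (median 96.8). Every NG array lay above every DRG array. Hoxb2 averaged 251 ± 36.2 in NG and 97.8 ± 24 in DRG (SD, n = 11 and 9), a 2.49-fold difference (log2 1.32, SE 0.143, adjusted p = 7.09e-08).

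Hoxb3, also a hindbrain and pharyngeal patterning gene, was read by 2 probe sets on Mouse430_2 that disagreed. With 1427605_at, signals ran from 57.3 to 129 in NG (median 102) and from 17.6 to 34.9 in DRG (median 25.3), with no overlap. The difference was 1.62 (SE 0.165, adjusted p = 2.41e-08), 3.07-fold. With 1456229_at, signals were 46.8 to 99.7 in NG (median 66.5) and 49.3 to 86.6 in DRG (median 61.6), which overlapped widely (0.11, SE 0.163, adjusted p = 0.715). Hoxb3 and Hoxb4 overlap in the annotation, and which transcripts each probe set reads was not analysed here.

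On MG-U74Av2, Hoxb3 (98780_at) gave 41.9, 71.2, 64.3, 80.8 and 64.8 in NG captured neurons, against 44.8, 28.5, 39.7, 57 and 34.9 in DRG captured neurons. The groups overlapped through 1 NG sample, number 010, at 41.9, and 2 DRG samples above it. The difference of 0.54 (SE 0.215, adjusted p = 0.0872) missed the threshold. It passed without NG replicate 010 (0.66, adjusted p = 0.0403) and with all 4 MG-U74Av2 groups in 1 fit (adjusted p = 0.0283). In whole ganglia it was too dim to test, at 28.6 to 50 in NG (median 39.5) and 27.7, 39.9, 32.5, 36.9 and 36 in DRG.

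Hoxb4, which marks the hindbrain from its posterior segments backward, was higher in NG with every probe set. On MG-U74Av2 arrays of captured neurons, 92255_at gave 57.1, 183, 77.1, 128 and 61.2 in NG, against 10.7, 6.4, 9.46, 12.7 and 4.66 in DRG. In whole ganglia the same probe set gave 51.2 to 86.9 in NG (median 74.8), against 17.6, 8.65, 5.99, 5.8 and 7.2 in DRG. The lowest NG sample lay well above the highest DRG sample in both experiments. This probe set passed the filter on dim probe sets through its NG arrays alone. Its DRG signals reached at most percentile 21.1 of their arrays in captured neurons and 28.1 in whole ganglia. It was thus tested on MG-U74Av2 only because NG was brighter, and its calls there are no separate support. DRG signals were mostly below the pseudocount, so the differences of 2.40 (SE 0.296, adjusted p = 4.48e-05, 5.26-fold) in captured neurons and 2.03 (SE 0.179, adjusted p = 1.49e-07, 4.07-fold) in whole ganglia are understated.

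On Mouse430_2, 2 probe sets read Hoxb4. The brighter one, 1460379_at, ran from 559 to 1160 in NG (median 760.3) and from 52.5 to 124.5 in DRG (median 80.8), with no overlap. It averaged 781 ± 150.2 in NG and 82.3 ± 22 in DRG (SD, n = 11 and 9), 8.88-fold (log2 3.15, SE 0.147, adjusted p = 7.59e-15). The dimmer one, 1451761_at, ran from 42.5 to 182 in NG (median 97.2) and from 23.3 to 62.6 in DRG (median 40.1). These groups overlapped, and the difference was smaller at 1.10 (SE 0.236, adjusted p = 0.000923). Among the samples whose numbers are absent from MG-U74Av2, this probe set differed by 0.79 (adjusted p = 0.0913), and among the others by 1.53 (adjusted p = 0.000413).

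Hoxb5, which in vagal neural crest takes part in forming the enteric nervous system, separated the ganglia on every array. In captured neurons on MG-U74Av2, 103666_at gave 2300, 2370, 2580, 2540 and 3310 in NG, against 299, 237, 233, 355 and 226 in DRG. In whole ganglia it gave 2634 to 4147 in NG (median 3030), against 347, 367, 382, 323 and 397 in DRG. On Mouse430_2, 1418415_at gave 2353 to 3373 in NG (median 2845) and 240.7 to 457 in DRG (median 362). No NG array came near a DRG array in any experiment.

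The Hoxb5 difference was 3.02 (SE 0.111, adjusted p = 4.15e-17) on Mouse430_2, 3.24 (SE 0.153, adjusted p = 2.98e-09) in captured neurons on MG-U74Av2 and 3.11 (SE 0.113, adjusted p = 1.51e-12) in whole ganglia. As folds these were 8.09, 9.43 and 8.64. Hoxb5 was not at the floor in DRG: its NG signals stood between percentiles 96.8 and 99.1 of their own arrays, and its DRG signals between percentiles 72.7 and 89.9. The antisense gene Hoxb5os, read on Mouse430_2 by 1447886_at, averaged 389.9 ± 182 in NG and 137 ± 61.8 in DRG (SD, n = 11 and 9), with overlapping groups (log2 1.43, SE 0.274, adjusted p = 0.000292).

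**Figure D2:**
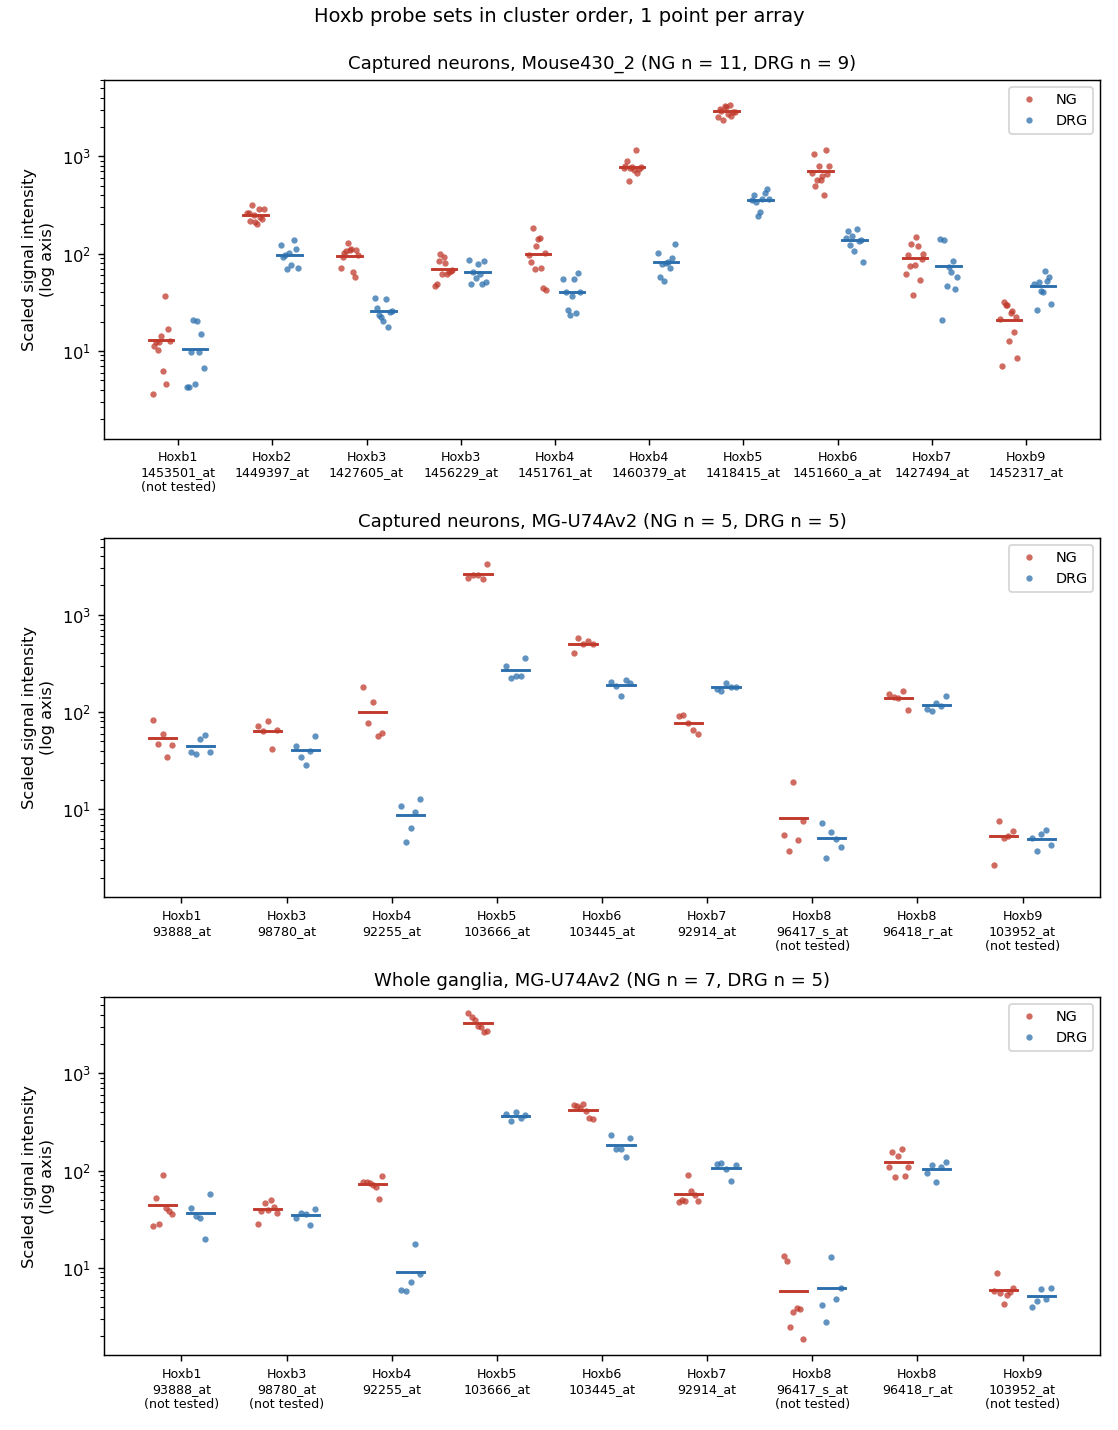
Scaled signal of every Hoxb probe set on each array (log axis, arbitrary units), 1 panel per experiment, with NG (red) left of DRG (blue) and lines at the means. The Hoxb5 NG points lie at 2300 or higher on every array, and its DRG points lie at 457 or lower.

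Hoxb6, the neighbour of Hoxb5, was also higher in NG in every experiment. Captured MG-U74Av2 samples, read by 103445_at, gave 539, 409, 572, 503 and 500 in NG, against 202, 147, 211, 199 and 184 in DRG. In whole ganglia it gave 338 to 483 in NG (median 439), against 139, 217, 229, 168 and 168 in DRG. On Mouse430_2, 1451660_a_at gave 401 to 1160 in NG (median 661) and 81.9 to 178 in DRG (median 138). The groups did not overlap in any of the 3 experiments. The differences were 2.28 (SE 0.174, adjusted p = 1.22e-10), 1.37 (SE 0.146, adjusted p = 1.08e-05) and 1.15 (SE 0.134, adjusted p = 3.94e-06) on Mouse430_2, in captured neurons on MG-U74Av2 and in whole ganglia, that is 4.84-fold, 2.59-fold and 2.22-fold.

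Hoxb7, a gene of the trunk and of the developing kidney duct, was lower in NG on MG-U74Av2. In captured neurons, 92914_at gave 64.9, 90.6, 92.8, 76.6 and 59.4 in NG, against 174, 200, 182, 179 and 164 in DRG, with no overlap (log2 -1.13, SE 0.159, adjusted p = 0.000134). In whole ganglia it gave 47.9 to 89.1 in NG (median 49.7), against 78.1, 115, 116, 120 and 104 in DRG (log2 -0.79, SE 0.156, adjusted p = 0.000766). There the groups overlapped through NG number 036, at 89.1, and DRG number 070, at 78.1. Without NG replicate 036 the difference was -0.88 (adjusted p = 0.000101). DRG was 2.19-fold and 1.73-fold above NG in captured neurons and whole ganglia.

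The Mouse430_2 probe set of Hoxb7 did not show this difference. Signals of 1427494_at were 37.3 to 146 in NG (median 88.8) and 20.9 to 141 in DRG (median 65.2), which overlapped over most of their range (0.32, SE 0.264, adjusted p = 0.438). The sign changed within the experiment, at 0.66 among sample numbers shared with MG-U74Av2 and -0.15 among the rest, neither past the threshold (adjusted p = 0.2 and 0.82). Probe sets that read Hoxb7 together with Hoxb8 are not members. Of these, 1452493_s_at on Mouse430_2 averaged 13 ± 9.34 in NG and 40.9 ± 16.7 in DRG (SD, n = 11 and 9, log2 -1.29, SE 0.253, adjusted p = 0.000383). Both means lay below the background gauge of 72.6. It passed the 40th percentile on 10 arrays, most of them DRG, where 9 were needed, so it was tested because DRG was brighter. On MG-U74Av2, 92915_s_at differed by 0.17 (adjusted p = 0.557) in captured neurons and -0.01 (adjusted p = 0.958) in whole ganglia.

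Hoxb8, active in the embryonic spinal cord and trunk, whose loss in mice leads to excessive grooming, was read on MG-U74Av2 alone. Its probe set 96418_r_at gave 163, 155, 142, 139 and 104 in NG captured neurons, against 107, 123, 115, 146 and 102 in DRG captured neurons. In whole ganglia it gave 86 to 164 in NG (median 109.5), against 108, 124, 94, 113 and 76.2 in DRG. Both pairs overlapped, with differences of 0.22 (SE 0.163, adjusted p = 0.37) and 0.20 (SE 0.167, adjusted p = 0.395). The other Hoxb8 probe set, 96417_s_at, was untested, with 0 arrays above the 40th percentile and signals of 3.15 to 19 in captured neurons and 1.85 to 13.2 in whole ganglia.

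Hoxb9, a thoracic-level gene at the far end of the set, was higher in DRG on Mouse430_2. Signals of 1452317_at ran from 6.93 to 31.6 in NG (median 22.2) and from 26.3 to 66.5 in DRG (median 48.5). The upper NG arrays overlapped the lower DRG arrays. DRG was 1.94-fold above NG (log2 -0.96, SE 0.212, adjusted p = 0.00132). Among sample numbers shared with MG-U74Av2 the difference was -0.75 (adjusted p = 0.0847), and among the rest -1.14 (adjusted p = 0.0297). On MG-U74Av2, 103952_at was untested, at 2.7 to 7.68 in NG and 3.77 to 6.11 in DRG captured neurons, and 4.31 to 8.96 in NG and 3.97 to 6.15 in DRG whole ganglia.

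Probe sets whose groups did not overlap numbered 5 with NG above and 0 with DRG above of 9 on Mouse430_2, beside 1.58% and 2.27% of all probe sets tested. They numbered 3 and 1 of 7 in captured neurons on MG-U74Av2, beside 7.94% and 8.37%, and 3 and 0 of 5 in whole ganglia, beside 9.42% and 8.69%. Hoxb4, Hoxb5 and Hoxb6 were among those with NG above in each experiment. On MG-U74Av2, Hoxb4 entered these counts and the counts of calls through its NG arrays alone, since its DRG arrays lay below the filter.

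Captured neurons were next set against whole ganglia on MG-U74Av2, in 1 fit of 4 groups with a pseudocount of 11.4. Capture and RNA amplification cannot be told apart in this comparison. In NG, 2 of 7 Hoxb probe sets tested were higher and 1 was lower in captured neurons, beside 26.2% and 29.2% of all 8309 probe sets tested. Hoxb3 was higher by 0.55 (SE 0.169, adjusted p = 0.00781), Hoxb7 was higher by 0.37 (SE 0.151, adjusted p = 0.0405), and Hoxb5 differed by -0.31 (SE 0.128, adjusted p = 0.0424). In DRG, 1 was higher and 1 was lower in captured neurons, beside 22.9% and 24.3%: Hoxb7 differed by 0.71 (SE 0.163, adjusted p = 0.000843) and Hoxb5 by -0.43 (SE 0.138, adjusted p = 0.0118). With the same median on every array, Hoxb5 in NG lost its call (-0.14, adjusted p = 0.418), and Hoxb6 (0.43, adjusted p = 0.00764) and Hoxb8 (0.37, adjusted p = 0.0358) gained one. The Hoxb7 call in DRG was lost without scaling of arrays (0.43, adjusted p = 0.176).

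The Hoxb5 and Hoxb7 differences in NG stood close to the threshold. Hoxb5 lost its call without whole-ganglion sample 020, 023 or 026 or captured sample 010, 003, 007 or 008, one at a time, with adjusted p-values from 0.0677 to 0.105. Hoxb7 lost its call without whole-ganglion sample 046, 073, 020, 023 or 026 or captured sample 003, 007 or 008, with adjusted p-values from 0.0525 to 0.114. Hoxb6 gained a call without captured sample 003 (0.33, adjusted p = 0.048). Hoxb3 stayed past the threshold without any one sample (highest adjusted p = 0.0304), but not without scaling of arrays (adjusted p = 0.0759).

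The ganglion difference itself was set between captured neurons and whole ganglia by an interaction term. None of the 7 Hoxb probe sets passed, beside 18.2% of all probe sets tested, and 0 had an unadjusted p under 0.05. The lowest unadjusted p was 0.14 and the lowest adjusted p 0.318, in limma's fit. The interaction ran from -0.34 for Hoxb7 to 0.38 for Hoxb3. A p that misses the threshold does not show that the differences were equal. Markers of other cells moved with the comparison: the summed fibroblast signal was 1416 to 3070 in captured NG neurons and 6248 to 10380 in whole NG, and 2843 to 6251 in captured DRG neurons and 6980 to 11620 in whole DRG. The summed glial signal was 12400 to 13580 in captured NG neurons and 16250 to 20680 in whole NG, and 14520 to 16970 in captured DRG neurons and 15920 to 19980 in whole DRG. Of these markers, 0 of 8 fibroblast genes tested were higher and 7 lower in captured NG neurons, and 1 of 9 glial genes was higher and 6 lower. In captured DRG neurons, 0 fibroblast genes were higher and 6 lower, and 3 glial genes were higher and 3 lower. The part of these other cells in the Hoxb differences was not tested.

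**Figure D3:**
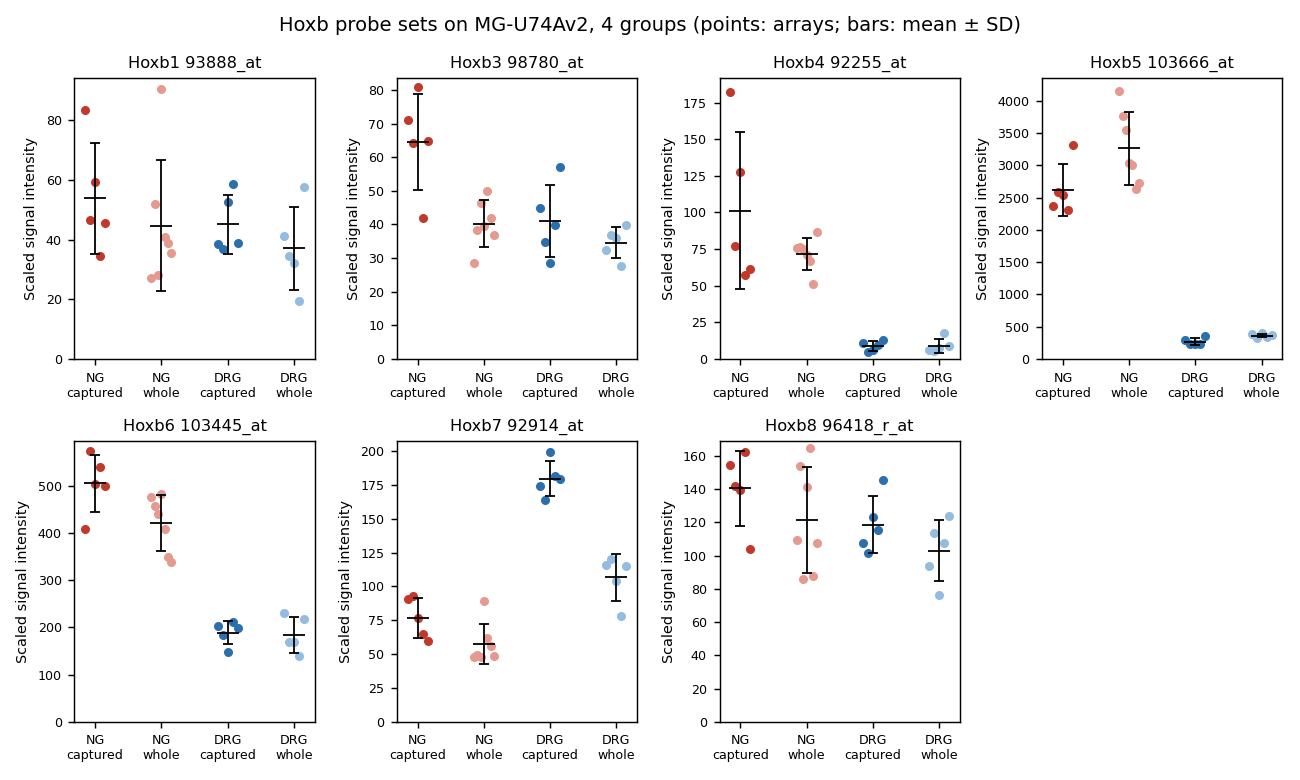
Scaled signal (arbitrary units, linear axes from 0) of the 7 tested Hoxb probe sets on MG-U74Av2 in NG captured, NG whole, DRG captured and DRG whole samples; points are arrays and bars are mean ± SD. Both NG groups lie above both DRG groups for Hoxb4, Hoxb5 and Hoxb6, and for Hoxb7 the DRG captured samples, at 164 to 200, lie above every other group.

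Hox genes outside Hoxb1 to Hoxb9 were counted in the same fits. Each gene was represented by its single-gene probe set of highest mean log2 signal. On Mouse430_2, 1 of the 17 tested was higher in NG and 7 were higher in DRG, among them Hoxa9, tested because DRG was brighter. Captured MG-U74Av2 samples gave 1 and 4 of 10, and whole ganglia gave 0 and 7 of 12. Over all probe sets tested on Mouse430_2, 9.72% were higher in NG and 12.5% in DRG. These shares were 10.4% and 11.3% in captured neurons on MG-U74Av2, and 19.6% and 15.8% in whole ganglia. The median NG minus DRG difference of these other Hox genes was -0.34, -0.45 and -0.95 in the same order. The gene higher in NG was Hoxc4, the paralogue of Hoxb4 in the HoxC cluster. It averaged 218 ± 48.5 in NG and 54.6 ± 12.3 in DRG on Mouse430_2 (SD, n = 11 and 9; log2 1.85, SE 0.162, adjusted p = 1.44e-09), with a difference of 0.87 (adjusted p = 0.00525) in captured neurons on MG-U74Av2 and 0.41 (adjusted p = 0.0681) in whole ganglia.

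Among the Hox genes higher in DRG, Hoxd1, a gene of nociceptor development in mice, differed by -3.05, -3.63 and -2.27 on Mouse430_2, in captured neurons on MG-U74Av2 and in whole ganglia. The MG-U74Av2 values come from different Hoxd1 probe sets, and the one not used gave -3.27 in captured neurons and -2.34 in whole ganglia. Hoxd8, a paralogue of Hoxb8, differed by -2.40, -1.46 and -1.51 on Mouse430_2, in captured neurons on MG-U74Av2 and in whole ganglia, and its other probe sets by -3.20, -2.21 and -2.04. Hoxa9, a paralogue of Hoxb9, averaged 4.79 ± 3.36 in NG and 697 ± 350 in DRG on Mouse430_2 (SD, n = 11 and 9, log2 -5.74, SE 0.23, adjusted p = 2.51e-16). Its NG mean lay below the pseudocount, so this probe set passed the filter on dim probe sets through its DRG arrays. It was thus tested because DRG was brighter, its call is no separate support, and its difference is understated. Hoxd9 differed by -2.98 on Mouse430_2. Hoxa7, a paralogue of Hoxb7, differed by -3.69 in captured neurons and -2.74 in whole ganglia on MG-U74Av2, and Hoxc9 by -1.56 in whole ganglia. Hoxa5, a paralogue of Hoxb5, ran opposite to it at -1.05, -0.64 and -0.83, all past the threshold, and its other Mouse430_2 probe set gave -2.56. The other Hoxa9 probe set gave -1.23 there (adjusted p = 0.00104).

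**Figure D4:**
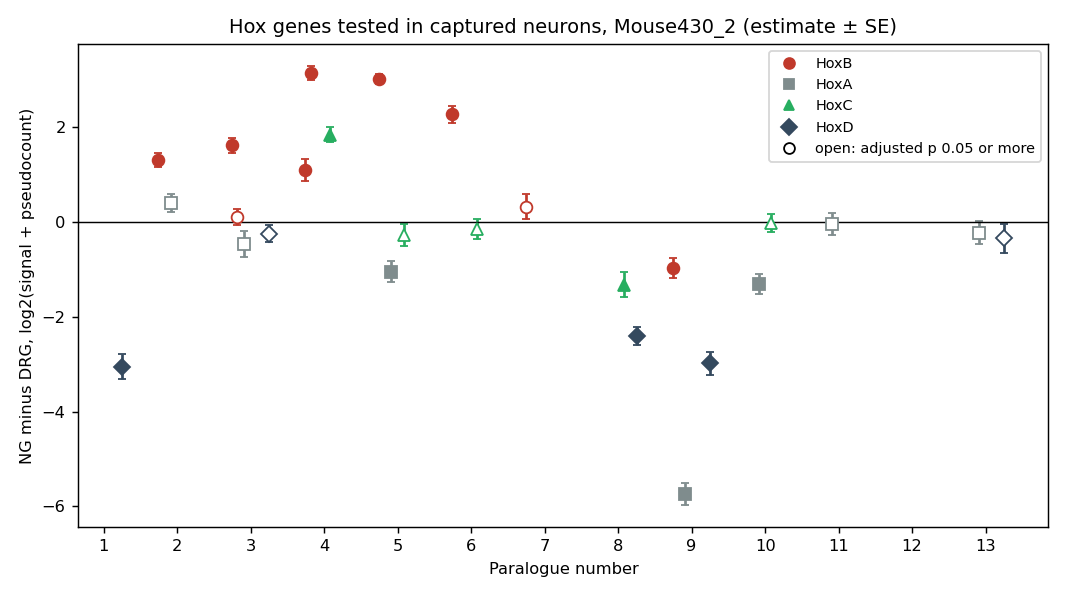
NG minus DRG difference (log2, bars are standard errors) of the Hox genes tested on Mouse430_2, by paralogue number and cluster, with every tested Hoxb probe set and open symbols where the adjusted p was 0.05 or more. The HoxB points past the threshold at numbers 2 to 6 lie above 0, as does Hoxc4. Hoxa9, at -5.74, is the lowest point and was tested because DRG was brighter.

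Hox proteins bind DNA with cofactors of the TALE homeodomain family. Pbx3, one of them, was higher in NG in all 3 experiments. It averaged 1948 ± 594 in NG and 389.5 ± 99.9 in DRG on Mouse430_2 (SD, n = 11 and 9; log2 2.27, SE 0.167, adjusted p = 5.52e-11), and 3680 ± 734 in NG and 635 ± 89.5 in DRG captured neurons on MG-U74Av2 (n = 5 each; log2 2.5, SE 0.156, adjusted p = 5.26e-08). In whole ganglia the difference was 0.55 (SE 0.107, adjusted p = 0.000681). The other Pbx3 probe sets gave 2.20 on Mouse430_2, 1.82 and 2.04 in captured MG-U74Av2 samples, and 0.32 and 0.41 in whole ganglia, all past the threshold. On Mouse430_2 Pknox1 was also higher in NG, by 0.88, though its other 2 probe sets (0.34 and 0.19) missed the threshold, and Pknox2 and Meis2 were higher in DRG (-2.27 and -2.04). Of 7 cofactors tested on Mouse430_2, 2 were higher in NG and 2 in DRG, beside 9.72% and 12.5% of all probe sets tested. Of 4 in each MG-U74Av2 experiment, 1 was higher in NG and 0 in DRG. The shares of all probe sets were 10.4% and 11.3% in captured neurons there, and 19.6% and 15.8% in whole ganglia. The median difference of the cofactors was -0.03 on Mouse430_2, 0.04 in captured neurons on MG-U74Av2 and -0.09 in whole ganglia.

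Genes beside the cluster were also measured. Skap1, an adaptor of immune cell signalling and the next protein-coding gene beyond Hoxb1, averaged 383 ± 93.7 in NG and 46.6 ± 19 in DRG on Mouse430_2 (SD, n = 11 and 9), with no overlap (log2 2.87, SE 0.18, adjusted p = 2.86e-12). Of 9 neighbours tested there, 6 were higher in NG and 0 in DRG, beside 9.72% and 12.5% of all probe sets tested. Among the 6 were Copz2 (1.48), Snx11 (0.92) and Nfe2l1 (0.62). In captured neurons on MG-U74Av2, which held no single-gene probe set for Skap1, 0 of 4 neighbours passed limma's test, with 3 at an unadjusted p under 0.05. Over all probe sets tested there, 10.4% were higher in NG and 11.3% in DRG. Among whole ganglia, 3 of 5 rose in NG relative to DRG (Cbx1 1.01, Copz2 0.70 and Ube2z 0.45), beside 19.6% of all probe sets tested. The second Ube2z probe set gave 0.23 (adjusted p = 0.423). Nfe2l1 was not among the 3 by its brighter probe set (0.02, adjusted p = 0.929), but its other one passed (0.49, adjusted p = 0.0176). On Mouse430_2, every tested Cbx1 probe set missed the threshold, with differences from -0.58 to 0.15. On the Hoxb9 side, Hoxb13, the last gene of the cluster, was too dim to test in any experiment. The neighbours' median difference was 0.48 on Mouse430_2, 0.43 in captured neurons on MG-U74Av2 and 0.45 in whole ganglia.

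The genes most like each Hoxb gene were named by Pearson correlation of log2 signal over the 20 Mouse430_2 arrays, which span both ganglia and share arrays. For Hoxb5 they were Ntsr1 (0.986), which is also on the vagal marker list, Cfap52 (0.985) and Cavin2 (0.984). Within a ganglion these were lower: 0.245 over NG and 0.247 over DRG arrays for Ntsr1, -0.138 and 0.384 for Cfap52, and 0.423 and 0.513 for Cavin2. For the brighter Hoxb4 probe set they were Ltk (0.986), Ntrk2 (0.982) and Abcb1a (0.982), and for Hoxb6 Cfap52 (0.958), Tes (0.956) and Edn3 (0.954). For Hoxb2 they were Hspbp1 (0.963), Ddah2 (0.953) and Nfkbia (0.952), and for the Hoxb3 probe set higher in NG they were Pbx3 (0.952), Cfap52 (0.949) and Mark1 (0.946). Across the matches named for Hoxb2, the NG-high Hoxb3 probe set, the brighter Hoxb4 probe set and Hoxb6, the correlation ran from 0.112 to 0.799 within NG and from -0.159 to 0.813 within DRG. For the remaining tested probe sets the best match was Patj (0.856) for Hoxb9, Synj2bp (0.858) for Hoxb7, Tle1 (0.859) for the dimmer Hoxb4 probe set and Tsc22d3 (0.844) for the other Hoxb3 probe set. Within NG these were 0.754, 0.9, 0.883 and 0.811 in the same order, and within DRG 0.13, 0.855, 0.181 and 0.9.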

How the data were processed

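The deposited values are linear signal intensities, 1 for each probe set on each array, which the submitters' processing notes attribute to MAS5. No version of it is recorded in the labels, and detection calls were not analysed here. Gene names came from the platform annotation, single-symbol probe sets alone; all 9 and 10 Hoxb probe sets matched RefSeq, and promoters are from RefSeq (GRCm38.p6). Arrays of a type were brought to one mean after trimming 2% at each end, and log2(signal + pseudocount) was analysed, with the pseudocount at the 20th percentile of the values. Tests covered probe sets that exceeded the 40th percentile of an array on a number of arrays no lower than the size of the smaller group. limma 3.58.1 was run in R 4.3.3 with lmFit and a robust, trended eBayes on the whole table of each experiment, two-sided, with Benjamini-Hochberg adjustment over all probe sets tested and a threshold of 0.05. Scripts were tested on simulated data.

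Members, lists and alternatives were chosen with earlier results of these data known. Every member probe set is named. List genes were named from those with the largest difference past the threshold, up to 4 per direction and experiment, and not all of those are named. Exceptions are Hoxa5, Hoxc4 and Hoxd8, followed across experiments, and Hoxb13, Hoxb5os and the probe sets of Hoxb7 with Hoxb8. These exceptions were named after their values were seen. The main fits did not pair samples by shared number. Deviations of same-numbered NG and DRG samples correlated between -0.11 and 0.11 over 4 pairs on MG-U74Av2 and between -0.15 and 0.16 over 7 pairs on Mouse430_2. Such correlations cannot show whether same-numbered samples came from the same animals. The number of arrays limits the precision. No 2 arrays held identical values. Alternatives covered scaling, pseudocount, filter, array weights, RNA quality, pooled fits and leaving out each array.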

Additional observations from a re-analysis of the deposited data

Results flagged for a closer look

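Hoxb7 (92914_at) in whole ganglia had 1 NG sample, number 036, apart from the other 6: its signal was 89.1, the next was 62.2 and the lowest of the group 47.9, and on the log2 scale, with the pseudocount added, its gap to the nearest sample was 0.59 of the group's range. Of 46 Hoxb sample groups of 4 to 10 arrays, it was the 1 whose ratio on that scale passed Dixon's critical value for its group size, a value that is higher for smaller groups. By chance about 1 in 20 groups would pass, so 1 of 46 is not above the rate that chance gives. The lower Hoxb7 signal in NG than in DRG was -0.79 with this sample and -0.88 without it.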

How the results depend on the processing

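In whole ganglia, 4 Hoxb probe sets passed in all 8 other settings and with each array left out. In captured neurons on MG-U74Av2 the count was 4 to 5, and on Mouse430_2 it was 6 to 7, over 10 and 11 settings. With each array left out it was 4 to 5 and 7. No call reversed. For captured against whole NG, the count of 3 was 5 with quantile normalization, 0 in limma's fit without scaling (1 at an unadjusted p under 0.05), 1 without the filter and 1 with array weights, and 1 to 3 with each array left out. For captured against whole DRG, the count of 2 was 1 without scaling. With the replicate block the counts were 4 in captured neurons on MG-U74Av2 and 7 on Mouse430_2, as in the fits without it; over all probe sets it gave 463 higher in NG and 591 higher in DRG, against 792 and 860, on MG-U74Av2, and 1731 and 2308, against 2733 and 3517, on Mouse430_2, while 1 of 4 and 1 of 7 pairs correlated best with their own number. No paired analysis was possible for whole ganglia because the groups share 1 number.

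Scaling moved the split of all calls. In whole ganglia 55.3% of calls were higher in NG, 40% with the same median on every array and 11.9% without scaling, which shifted the median difference of all probe sets to -0.29. On MG-U74Av2 captured neurons 47.9% became 35.4% without scaling (386 and 703 calls). On Mouse430_2 43.7% became 63.5% with the same median and 24.4% without scaling (1016 and 3141 calls). The beta actin ratio as a covariate left 351 and 488 calls in captured neurons on MG-U74Av2, with 3' over 5' log2 ratios of 5.58 to 6.2 in NG and 5.28 to 5.66 in DRG. On Mouse430_2 it gave 2977 and 3739 calls, against 2733 and 3517 without it. Whole ganglia had lower ratios, 2.26 to 3.44 in NG and 2.68 to 2.89 in DRG. The fits of captured against whole samples were not adjusted for this. For captured against whole NG, 47.3% became 60.9% with the same median, and for captured against whole DRG 48.5% became 17.9% without scaling. The NG minus DRG difference was more positive in captured neurons for 42.4% of interaction calls, 59.9% with the same median and 69.3% without scaling (459 and 203 calls, against 641 and 871). The causes were not tested. Low signal limits Hoxb1, Hoxb9, the second Hoxb8 probe set and the tested probe sets named in the results as below the gauge of background.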

Other observations

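Genes that act on Hox expression varied by experiment. Rxrg, a retinoid X receptor, was lower in NG captured neurons (log2 -1.91, adjusted p = 1.61e-07 on Mouse430_2; -2.65, adjusted p = 3.08e-06 on MG-U74Av2) and higher in NG whole ganglia (0.94, adjusted p = 0.0105). Rxra was higher in NG on Mouse430_2 (0.77; its other tested probe set gave 0.0031, adjusted p = 0.995), and Rarg was lower in NG whole ganglia (-1.32). On Mouse430_2, 2 of 9 tested were above DRG in NG and 1 below, beside 9.72% and 12.5% of all probe sets tested. Captured MG-U74Av2 samples gave 0 and 1 of 4, beside 10.4% and 11.3%. Whole ganglia gave 1 and 1 of 5, beside 19.6% and 15.8%.

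Of Polycomb and trithorax genes, which hold Hox genes silent or active, 5 of 18 tested on Mouse430_2 were above DRG in NG and 2 below. The shares of all probe sets tested were 9.72% and 12.5%. Each MG-U74Av2 experiment gave 1 and 1 of 14, beside 10.4% and 11.3% in captured neurons and 19.6% and 15.8% in whole ganglia. Bmi1, which encodes a Polycomb subunit, differed by -1.26 on Mouse430_2 and -2.55 among captured MG-U74Av2 samples. Kdm6a, a histone demethylase gene, gave 1.76 among the captured MG-U74Av2 samples, but its Mouse430_2 probe sets disagreed in sign, at 1.23 (adjusted p = 0.0272) and -0.74 (adjusted p = 0.0049).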
